A study of Caenorhabditis elegans with 4 samples.

Results

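LIN-39 peaks that lay close together along the genome of Caenorhabditis elegans were described as runs, chains of called binding regions each at most 2 kb from the next. Peaks of the authors' combined list were sorted by chromosome and first position, and consecutive peaks were joined when at most 2000 bp lay between them. Of 1874 combined peaks, 406 (21.7%) fell in 167 runs of 2 or more peaks, and the other 1468 stood alone. These members held 35.2% of all bases called in the combined list, or 31.3% with the widest peak, on chromosome III, left out. The members were chosen by the positions of the peaks in the combined list, so sizes, gaps and numbers of peaks per run are given as a description, with no test. All 406 members are counted below, since no filter was applied.

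The animals were hermaphrodites of strain OP18, genotype unc-119(ed3) III with the transgene wgIs18, in which lin-39 is fused to TY1, EGFP and 3xFLAG and unc-119(+) is the marker, grown at 20 °C to the L2 stage. All groups carried the same alleles. The strain was made by bombardment with a recombineered construct and outcrossed 3 times, so it is a single transgenic line that carries the tagged gene beside its own lin-39. Chromatin was immunoprecipitated with antibodies to GFP and sequenced (ChIP-seq) in 2 LIN-39 ChIP samples, replicates 1 and 2. The other 2 samples were input DNA, whose own values were not used here. No group without the tagged transgene was analysed here. The labels do not say whether the replicates were separate cultures. Whole animals were used, so strong binding in few cells and weak binding in many cannot be told apart.

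The Hox factor LIN-39 acts in the mid-body of the worm. It keeps the vulval precursor cells from fusing with the surrounding epidermis, takes part in vulval induction, and sets the fates and migrations of midbody neurons and neuroblasts. Hox proteins recognise short AT-rich sites, often together with partner homeodomain proteins of the Pbx and Meis classes, which in the worm are CEH-20 and UNC-62. Such short sites are frequent in any genome, and regulatory elements of animals commonly hold several of them. A peak list records each called stretch on its own, so neighbouring elements and pieces of a broad enriched stretch cannot be told apart from positions alone.

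The replicate lists were far shorter than the combined list, with 239 peaks in replicate 1 and 83 in replicate 2. The lists give a q-value for each peak and no read counts, so depth is unknown. Strength below means −log10 of the authors' q-value in the named list, not an amount of binding, and q stood below 0.001 for each peak. Coordinates are of genome build WormBase WS220. No annotation or sequence of that build was used here, so runs are named by position and no gene is assigned to them.

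Most runs were pairs. There were 126 pairs, 26 runs of 3 peaks, 7 of 4, 4 of 5, 2 of 6, and single runs of 7 and of 9 peaks. A run spanned a median of 1823 bp (interquartile range 1313 to 2731.5), from 285 bp to 37827 bp. Pairs had a median span of 1578.5 bp, and the 41 runs of 3 or more had one of 3928 bp. Called peaks covered a median of 36.7% of a run (interquartile range 24.4 to 48.9%). In a typical run the uncalled sequence between the members was thus longer than the members themselves.

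Gaps between members were spread over the whole range from about 200 bp to the limit. The median of the 239 gaps was 984 bp (interquartile range 559 to 1407). Up to 500 bp there were 53 gaps, from 500 to 1000 bp 68, from 1000 to 1500 bp 66 and from 1500 to 2000 bp 52. No gap in the combined list was shorter than 206 bp, and the smallest gap was 333 bp in replicate 1 and 312 bp in replicate 2. Gaps on chromosome I, with a median of 957 bp over 167, were close to those elsewhere, with 1016 bp over 72. Past the limit the numbers went on lower, at 35 gaps from 2000 to 2500 bp and 34 from 2500 to 3000 bp. The limit of 2 kb did not fall in an empty part of this range.

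**Figure D1:**
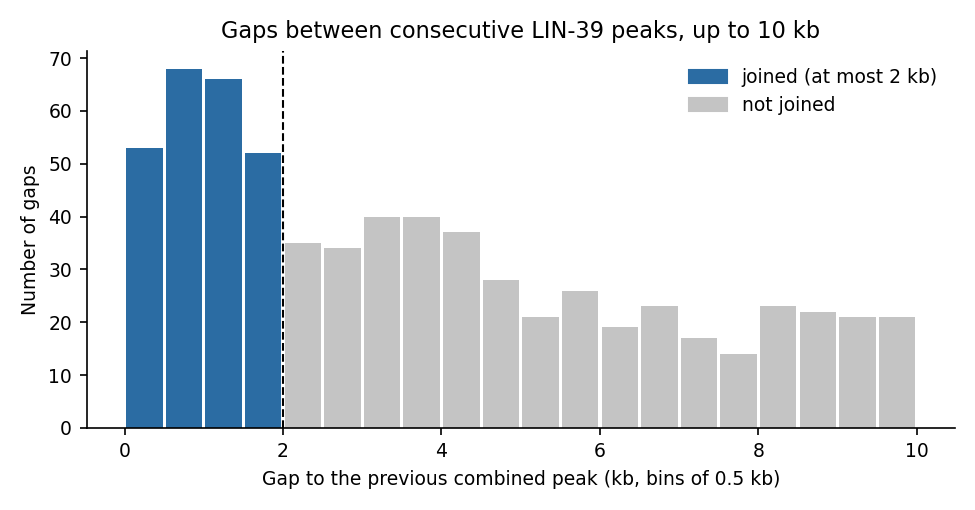
Number of gaps between consecutive combined peaks (y axis) by gap length in kb (x axis, bins of 0.5 kb, up to 10 kb); blue bars are gaps joined into runs, grey bars are gaps that separate runs and single peaks, and the dashed line marks 2 kb. The 4 blue bars hold 52 to 68 gaps each and the first grey bar 35.

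The gaps nearest the limit were also listed. The 3 largest joined gaps were 1997 bp between I:8245451-8245669 (q = 2.89e-05) and I:8247667-8247762 (q = 0.000771), 1995 bp between V:5580502-5580881 (q = 7.56e-06) and V:5582877-5583242 (q = 2.94e-08), and 1985 bp between IV:12010478-12010642 (q = 6.68e-05) and IV:12012628-12012901 (q = 2.75e-05). The 3 smallest gaps not joined were 2001 bp between I:1444144-1444462 (q = 0.000482) and I:1446464-1447303 (q = 2.94e-08), 2015 bp between I:9846213-9846600 (q = 9.58e-05) and I:9848616-9848666 (q = 2.01e-05), and 2027 bp between I:7472327-7472792 (q = 2.47e-05) and I:7474820-7475785 (q = 2.40e-14). Strong and weak peaks occurred on both sides of the limit. The closest neighbours of all lay on chromosome I, with gaps of 206 bp between I:2238792-2240755 and I:2240962-2241613, 208 bp between I:4942626-4942801 and I:4943010-4943138, and 217 bp between I:162426-162858 and I:163076-164292.

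Runs were concentrated on chromosome I, which held 276 of the 406 members (68.0%) and 109 of the 167 runs (65.3%). That chromosome also held 785 of all 1874 combined peaks and 509 of the 1468 single peaks. Of all combined peaks on chromosome I, 35.2% were members (Wilson 95% interval 31.9 to 38.6%), against 11.9% (10.1 to 14.0%) on the other chromosomes together. The share was 16.7% on III, 14.0% on II, 13.7% on X, 8.22% on V and 7.18% on IV. Those 5 chromosomes held 7 to 19 runs each, with 19 on X, 12 on III, 11 on II, 9 on V and 7 on IV. Runs of 3 or more were found on I (32), III (4), X (3) and II (2), and neither IV nor V had any. Chromosome I was also the densest, with 52.4 peaks per Mb of span, against 17.8 on X and 10.5 to 12.6 on II to V. Among those 5, X was the densest. The interval of its share (10.3 to 17.9%) overlapped those of III (11.8 to 23.0%) and II (9.80 to 19.6%). The part of density in the number of runs was not tested.

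**Figure D2:**
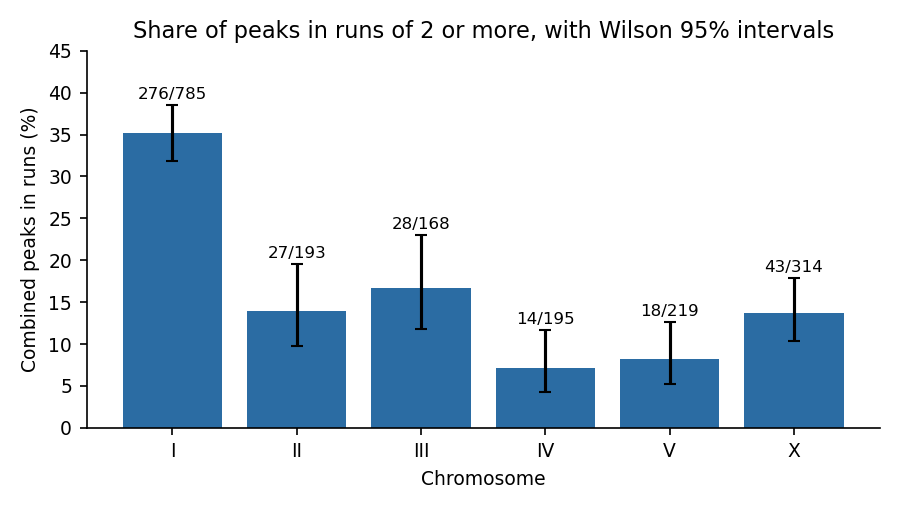
Share of combined peaks that belong to runs (y axis, percent) on each chromosome (x axis); bars are shares with Wilson 95% intervals, and the numbers above are members over all peaks. Chromosome I stands at 35.2% and the other 5 between 7.18% and 16.7%.

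Along chromosome I the runs were uneven. Each of its 15 intervals of 1 Mb held at least 1 run. The interval from 2 to 3 Mb had 22 runs, in which 60 of its 97 peaks lay (61.9%). The interval from 1 to 2 Mb followed with 12 runs and that from 7 to 8 Mb with 10, whereas the interval from 11 to 12 Mb had 1 run and 2 members among 35 peaks. On the other chromosomes 41 of 87 such intervals held a run, and none had more than 3. Of 161 gaps between successive runs, 22 were at most 10 kb long, 20 of these on chromosome I. Chains of neighbouring runs included that at the left end of I, where runs of 4, 2, 7 and 6 peaks followed each other from I:127734 to I:167986. Near 2.2 Mb, runs of 2, 3 and 9 peaks lay from I:2216607 to I:2247152. Runs of 2, 5, 2 and 2 peaks lay from I:2960555 to I:2984272.

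On X, 14 of 19 runs lay in the middle 50% of the span (73.7%, 51.2 to 88.2%), against 131 of 271 single X peaks (48.3%, 42.5 to 54.3%). On II to V the shares were 64.1% of 39 runs (48.4 to 77.3%) and 58.7% of 688 single peaks (55.0 to 62.3%). On chromosome I they were 45.9% of 109 runs (36.8 to 55.2%) and 48.5% of 509 single peaks (44.2 to 52.9%). Intervals of runs and single peaks overlapped on I, on X and on II to V.

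Of the 5 runs with most peaks on chromosome I, 1 was also among the 10 strongest, the 5-peak run I:1833851-1842238 described below. The other 4 were weaker. I:2231038-2247152, the longest chain with 9 peaks, had its strongest member in the middle, the 1964 bp peak I:2238792-2240755 (q = 1.33e-12, rank 47), which neither replicate listed. Only its neighbour I:2237509-2238459 (q = 7.97e-09) was found again, in replicate 1 at I:2237518-2238418 (q = 0.000488). I:145432-157061 with 7 peaks and I:160492-167986 with 6 reached q = 1.37e-07 and 2.77e-06, and no member of either was in a replicate list. I:7708370-7715970, also with 6 peaks, had its strongest member at I:7711673-7713037 (q = 1.33e-13) in neither list. Its weaker members I:7714170-7714420 (q = 7.82e-07) and I:7715527-7715970 (q = 1.10e-07) overlapped replicate 1 peaks (q = 0.000229 and 0.000227).

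Outside chromosome I the 3 runs with more than 3 peaks were weaker still. X:6740538-6745749 had 5 peaks of 251 to 784 bp and a smallest q of 6.04e-06. II:6821055-6827698 had 5 peaks of 313 to 612 bp, all between q = 0.000125 and 0.000677. II:13255267-13258164 had 4 peaks of 40 to 285 bp with a smallest q of 6.45e-05. None of these 14 peaks was in a replicate list.

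The strongest runs had 1 dominant peak with weaker company. First was III:7518972-7556798, where the 30794 bp peak III:7518972-7549765 (q = 1.73e-165) was followed after 1109 bp by III:7550875-7554946 (q = 1.26e-19) and after 1657 bp more by III:7556604-7556798 (q = 1.36e-05, 195 bp). Replicate 1 listed the first of these peaks at III:7518995-7549762, and replicate 2 only a part of it, III:7522622-7538777. Both listed the second peak, and neither listed the last. The strain carries lin-39 as a transgene beside its own copy, and input values were not used here. Whether extra copies of DNA add to the first peak was not tested. The run I:1833851-1842238 held 5 peaks separated by 254 to 428 bp that filled 83.5% of its 8388 bp. Its second peak, I:1836207-1838613, had q = 2.74e-35, and the others lay between q = 9.11e-11 and 8.07e-07. This run was more nearly continuous than most, against the median coverage of 36.7%.

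In I:9962174-9964934 a 964 bp peak (q = 9.08e-34) was followed after 1526 bp by a 271 bp peak (q = 3.95e-10). In IV:13694644-13696372 a 281 bp peak (q = 1.97e-11) preceded an 838 bp peak (q = 1.17e-28) by 610 bp. I:5311597-5313614 paired peaks of 601 bp (q = 3.39e-10) and 800 bp (q = 6.50e-17), 617 bp apart. In these 3 pairs the weaker member was itself among the 88 strongest combined peaks.

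The other 5 of the 10 strongest runs paired a strong peak with much weaker companions. I:4699198-4703496 combined a peak of q = 8.04e-27 with companions of q = 5.82e-05 and 0.000166. III:8872763-8876077 combined one of q = 1.35e-23 with companions of q = 0.000116 and 0.000236, the latter only 2 bp wide. I:5688009-5691936 (strongest q = 2.03e-19) had companions of q = 5.32e-06 and 0.000147. I:7517430-7518883 (q = 1.03e-16) had a companion of q = 9.62e-05. I:14807998-14810281 (q = 1.74e-16) had companions of q = 7.52e-09, 0.000416 and 0.000773, the last of them 4 bp wide. In each of these 5 runs the strongest peak was in both replicate lists and no companion was in either.

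Over all 167 runs, the strongest and the weakest member differed by a median of 1.27 units of −log10 q. In pairs the median difference was 0.85 (interquartile range 0.39 to 2.41), and 67 of 126 pairs (53.2%) differed by less than 1 unit. A difference of 5 or more was found in 24 runs. The strongest peak was also the widest in 104 runs (62.3%). The strongest peak was first by coordinate in 56 pairs and second in 70, a difference that was not tested. Of the 26 runs of 3, the strongest peak was in the middle in 13, first in 9 and last in 4.

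**Figure D3:**
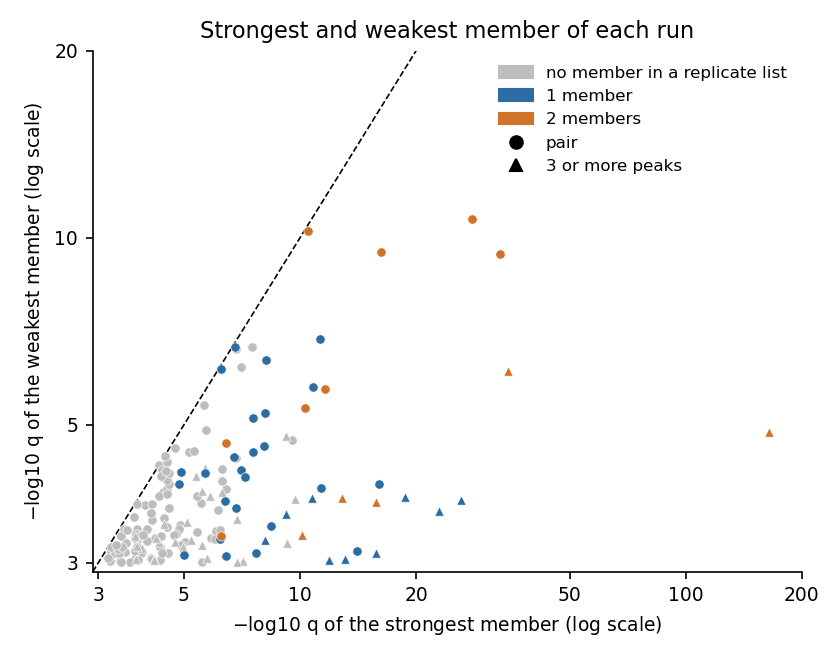
Strength (−log10 q in the combined list) of the weakest member (y axis, log scale) against that of the strongest (x axis, log scale) for each of the 167 runs; circles are pairs, triangles are runs of 3 or more, colours give how many members overlapped a replicate peak, and the dashed line marks equal values. Most runs sit at low values near the line, and of the 24 runs whose strongest member exceeds 10, all but I:2291015-2296550 have 1 or 2 members in a replicate list. Strong single peaks were also mostly in a replicate list, 13 of 13 at ranks 1 to 20 and 43 of 50 at ranks 21 to 100. A run counts here when any member is listed, so the high share is no finding about runs.

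As a group, members were somewhat stronger and wider than single peaks, with broad overlap. Their median −log10 q was 4.18 (interquartile range 3.47 to 5.59), against 3.88 (3.35 to 4.80) for the 1468 single peaks and 3.96 for all combined peaks. Their median width was 292.5 bp (154.25 to 473.75), against 191 bp (78 to 328.25). Peaks narrower than 50 bp made up 8.13% of members and 19.1% of single peaks. The order was the same on chromosome I (medians 4.23 and 4.04, 301 and 191 bp) and on the other chromosomes (4.05 and 3.85, 279 and 189 bp). These values come from the list that chose the members and are given without a test. Members made up 35% of the 20 strongest combined peaks (7 of 20, 18.1 to 56.7%) and 37.5% of ranks 21 to 100, against 21.7% of all combined peaks. Their share was 24.5% of ranks 101 to 500, 22% of ranks 501 to 1000 and 18.4% of the rest. Chromosome I, where 35.2% of peaks were members, held 4 of the 20 strongest peaks and 52 of the 80 at ranks 21 to 100. Its part in these shares was not tested.

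Members were then looked for in the replicate lists, which the rule did not use, by an overlap of at least 1 bp. Of the 406 members, 60 were in at least 1 replicate list (14.8%, 11.7 to 18.6%), against 12.4% of all combined peaks and 11.8% (10.2 to 13.5%) of single peaks. Replicate 1 listed 57 members (14.0%, 11.0 to 17.8%), with 11.3% of all combined peaks. Replicate 2 listed 21 (5.17%, 3.41 to 7.78%), with 4.32% of all combined peaks. Both replicates listed 18 (4.43%, 2.82 to 6.90%), with 3.15% of all combined peaks. Each of these 4 shares of members lay near the share over all peaks, and the intervals of members and single peaks overlapped. The 3 lists belong to 1 series, so this recurrence is no independent evidence for a peak, and no test was made over the 2 samples.

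The shares were then taken separately for chromosome I and for the other chromosomes. On I, 31 of 276 members were in at least 1 replicate list (11.2%, 8.03 to 15.5%), against 9.3% of all combined peaks there and 8.25% (6.16 to 11.0%) of single peaks. Elsewhere 29 of 130 members were (22.3%, 16.0 to 30.2%), against 14.7% of all combined peaks there and 13.7% (11.6 to 16.0%) of single peaks. Off chromosome I the unrounded intervals of members and single peaks narrowly did not overlap, and in replicate 1 alone they were 15.3 to 29.4% around 21.5% of members and 9.99 to 14.1% around 11.9% of single peaks. This difference was not tested, and peaks of a run are not independent. Peaks of one run share their locus, so runs were also counted once each. A run counted when any of its members recurred, so shares of runs cannot be set beside shares of peaks. At least 1 member recurred in 47 of 167 runs (28.1%, 21.9 to 35.4%), made up of 24 of 109 runs on I (22.0%, 15.3 to 30.7%) and 23 of 58 elsewhere (39.7%, 28.1 to 52.5%). By chromosome the counts were 6 of 9 runs on V (35.4 to 87.9%), 5 of 11 on II (21.3 to 72.0%) and 7 of 19 on X (19.1 to 59.0%). They were 2 of 7 on IV (8.22 to 64.1%) and 3 of 12 on III (8.89 to 53.2%). These wide intervals all overlapped. Shares of all combined peaks were not taken for each of these chromosomes, so the counts do not set any of them apart.

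Recurrence followed rank in members as in single peaks. All 7 members among ranks 1 to 20 recurred, as did all 13 single peaks there. For ranks 21 to 100 the counts were 22 of 30 members (73.3%, 55.6 to 85.8%) and 43 of 50 single peaks (86%, 73.8 to 93.0%). For ranks 101 to 500 they were 27 of 98 members (27.6%, 19.7 to 37.1%) and 91 of 302 single peaks (30.1%, 25.2 to 35.5%). Chromosome I held 90% of the members and 50% of the single peaks of ranks 21 to 100, and 68.4% and 41.7% of those of ranks 101 to 500. Within chromosome I, 9 of 67 members (13.4%, 7.23 to 23.6%) and 23 of 126 single peaks (18.3%, 12.5 to 25.9%) of ranks 101 to 500 recurred. Within the other chromosomes the counts at those ranks were 18 of 31 members (58.1%, 40.8 to 73.6%) and 68 of 176 single peaks (38.6%, 31.8 to 46.0%). Members and single peaks of like rank and chromosome group had overlapping intervals in every bin that was compared. Below rank 500 on chromosome I, none of 179 members and none of 357 single peaks was in a replicate list.

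**Figure D4:**
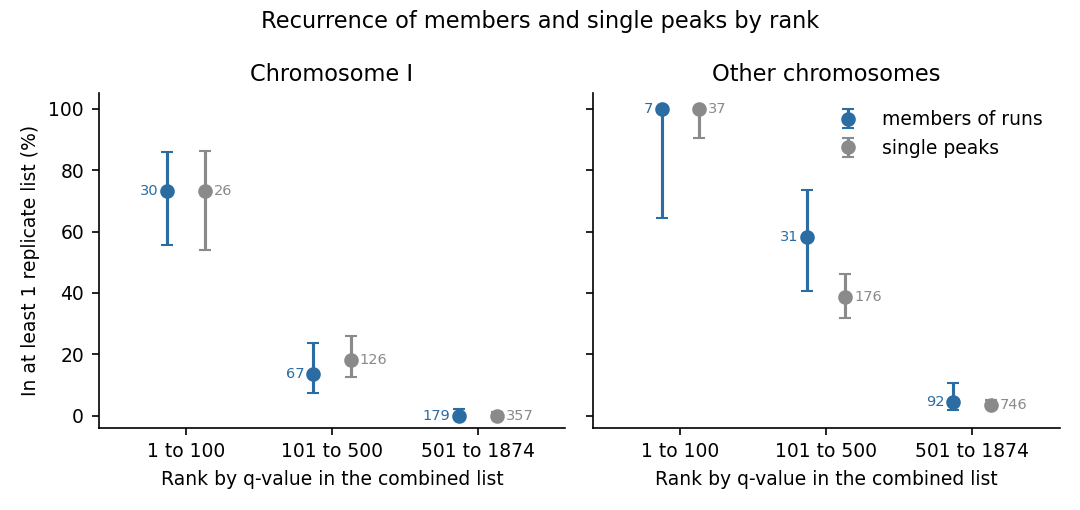
Share of combined peaks found in at least 1 replicate list (y axis, percent) by rank in the combined list (x axis), on chromosome I (left) and the other chromosomes (right); blue points are members of runs, grey points single peaks, bars Wilson 95% intervals, and small numbers the peaks per point. The share falls from 73.3% to 0% for members on I and from 100% to 4.35% for members elsewhere.

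Within a run it was mostly the strongest member that recurred. The strongest was picked by the combined q-value, which recurrence followed in single peaks as well. A higher share among strongest members is thus no finding about runs. Of the 167 strongest members, 42 were in a replicate list (25.1%), against 18 of the other 239 (7.53%) and 12.4% of all combined peaks. Of the 34 runs with a single recurring member, this was the strongest one in 30. The 57 members in replicate 1 had a median −log10 q of 3.75 there (3.02 to 46.0), and the 154 single peaks in replicate 1 one of 3.79. The 21 members in replicate 2 had a median of 4.45 (3.01 to 23.4), and the 60 single peaks 4.02. The medians of members and single peaks were thus nearly equal in replicate 1, and that of members was the higher in replicate 2. Replicate peaks covered a median of 81.4% of the member they overlapped in replicate 1 and 85.7% in replicate 2.

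Separation of neighbouring peaks could be seen in a replicate only where it listed 2 members of a run. In 120 of the 167 runs no member was in a replicate list, and in 34 a single member was. No replicate peak spanned 2 members of a run, and each recurring member overlapped at most 1 peak per list. In 13 runs, 7 of them on chromosome I, at least 2 members recurred, 8 of these runs being pairs found whole. Replicate 1 listed 2 members in 11 runs and replicate 2 in 3 runs. In I:434506-435845 both members had nearly equal strength (q = 3.45e-11 and 5.34e-11), and replicate 1 showed them as I:434518-434836 (q = 3.22e-05) and I:435495-435821 (q = 0.00036). Replicate 2 listed the right one alone, at I:435491-435824 (q = 0.000986).

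The pair on IV was the only one separated in both replicates. Its left member was found at IV:13694664-13694901 in replicate 1 (q = 3.42e-06) and at IV:13694671-13694891 in replicate 2 (q = 3.54e-05). Its right member was found at IV:13695616-13696363 (q = 4.92e-17) and at IV:13695534-13696361 (q = 1.73e-09). The gap was 714 bp in replicate 1, 642 bp in replicate 2 and 610 bp in the combined list. Both replicates also listed the first and second peaks of the 3-peak run III:7518972-7556798, replicate 2 only a part of the first.

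In I:1833851-1842238 replicate 2 listed parts of the first and second peaks, I:1835324-1835858 (q = 0.000343) and I:1836221-1837429 (q = 1.20e-05), and replicate 1 a part of the second, I:1836310-1837700 (q = 6.27e-06). In I:9373044-9375588 the replicates listed different members. Replicate 1 had the first (I:9373205-9373546, q = 0.000106) and replicate 2 the second (I:9374534-9374983, q = 0.000249). In II:6705658-6707819 replicate 1 listed both members (q = 0.000338 and 5.71e-07) and replicate 2 the stronger right one. X:17477395-17480524 had both members in replicate 1 (q = 0.000279 and 0.000237) and the right one in replicate 2. A member missing from a list did not pass the authors' threshold there and was not shown to differ between replicates.

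**Figure D5:**
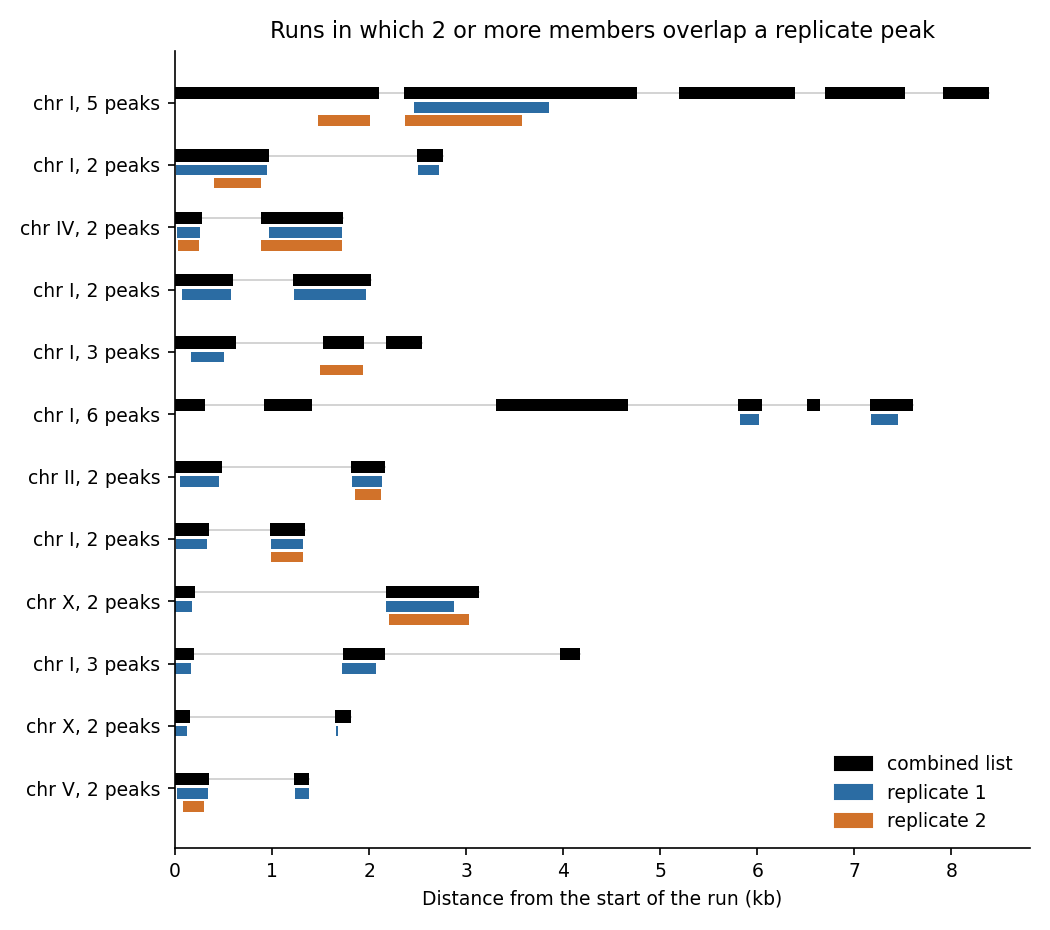
Layout of 12 of the 13 runs in which 2 or more members overlapped a replicate peak, ordered by strength, with distance from the start of the run in kb (x axis); black bars are combined peaks, blue bars replicate 1 peaks and orange bars replicate 2 peaks. The run on III of 37827 bp is left out for scale, and each replicate bar lies under 1 black bar.

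The same joining was applied to each replicate list on its own. Replicate 1 gave 13 runs, all pairs, and replicate 2 gave 3 pairs. Of the 13 pairs in replicate 1, 11 matched 2 members of a combined run. The other 2 lay inside single combined peaks. V:4506679-4508544 (combined q = 1.07e-34) was split in replicate 1 into V:4506696-4507412 (q = 0.000997) and V:4507746-4508484 (q = 7.50e-17), 333 bp apart. X:16929333-16931827 (combined q = 2.01e-33) was split in both replicates, with gaps of 507 bp in replicate 1 and 312 bp in replicate 2. Whether neighbouring sites were counted as 1 peak or as a run thus differed between lists at these 2 strong loci, which the rule placed among the single peaks.

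Of the 26 replicate 1 peaks that overlapped no combined peak, none lay inside a run and 1 lay within 2 kb of a run. The single such peak of replicate 2 was not within 2 kb of one. No replicate peak thus lay wholly within a gap between members.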

How the data were processed

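The deposited data used here were 3 peak lists, 1 for each LIN-39 ChIP replicate and 1 combined. Per the file headers, peaks were placed on build WormBase WS220, and the source column names PeakSeq as the caller. Not given in the sources used here are the aligner, the caller's version, threshold and control, and whether reads were pooled for the combined list. The p-value column deposited by the authors was read as adjusted q-values: ordered by peak number, the combined values fell at 886 of 1873 steps, and their product with the peak number at 0 (relative tolerance 1e-09). Peak positions are the authors' deposited first and last bases. Of the combined peak numbers, 46 of 1920 were absent from the list as read here, and any such peaks could have joined others. Absent numbers were 5 of 244 in replicate 1 and 1 of 84 in replicate 2. The sources used here do not say why.

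Members, lists and named regions were chosen with earlier results of these data known. Peaks were joined when start minus previous end minus 1 was at most 2000, and lists were matched by an overlap of at least 1 bp. Shares carry Wilson 95% intervals, which cover counting error alone; peaks of a run are not independent. Depth is unknown. No hypothesis test was run, since positions of the same list chose the members and the series has 2 ChIP samples. Span is the largest coordinate per chromosome. The rule for named regions took the 10 strongest runs, the 5 runs with most peaks on chromosome I and 5 elsewhere, runs with 2 or more recurring members (up to 10), and the gaps nearest the limit and the smallest. Joining and matching were tested on simulated data with planted runs. The scripts used matplotlib 3.10.9, scipy 1.17.1, pandas 2.3.3 and numpy 2.4.6 under Python 3.11.15.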

Additional observations from a re-analysis of the deposited data

How the results depend on the processing

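The number of members depended on the joining distance and on which peaks entered. It was 97 in 44 runs at 500 bp, 216 in 95 runs at 1000 bp and 710 in 257 runs at 5000 bp, 66 in 29 runs among peaks with q of 1e-05 or below, and 130 in 58 runs without chromosome I. Without peaks under 50 bp it was 349 in 142 runs. The share of members in at least 1 replicate list stayed between 13.4% and 15.3% for the 3 other joining distances. It was 48.5% at q of 1e-05 or below, with single peaks at 43.7%. Without chromosome I it was 22.3% (16.0 to 30.2%), with single peaks at 13.7% (11.6 to 16.0%). Of runs, 72.4% at q of 1e-05 or below and 39.7% without chromosome I had a recurring member. These shares of runs cannot be set beside shares of peaks. Leaving out 1 replicate gave 5.17% to 14.0% of members and 10.8% to 27.5% of runs, the lower values without replicate 1, so these shares rest on replicate 1. Single peaks moved the same way, at 4.09% without replicate 1 and 10.5% without replicate 2, so this dependence is not particular to members. Medians of strength and width were higher in members than in single peaks under each alternative, but the binomial 95% interval of the members' median strength included the single-peak median at 500 bp, at 1000 bp and without chromosome I. The excess in −log10 q was 0.29 as reported, 0.11 at 1000 bp and 0.70 at q of 1e-05 or below, where the members' medians were 6.99 and 449.5 bp. Their median width was 339 bp without peaks under 50 bp. No paired analysis was possible because the result comes from no test and no input values were used. Without read counts, depth cannot be set beside a missing peak.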
